A study of Mus musculus with 18 samples.

Results

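To examine how the core cardiac transcription factors are expressed while the mouse heart matures after birth, 10 genes were followed in single-cell RNA-seq of dissociated hearts: Nkx2-5, Gata4, Gata6, Tbx5, Tbx20, Mef2a, Mef2c, Irx4, Nr2f2 and Meis1. The genes were chosen by name, as factors known from heart development, and make up 10 of the 34891 gene columns that carry a gene symbol. None of them took part in clustering the cells or in naming the clusters. Across all the deposited wells the study asked how cardiomyocytes (CMs) change between postnatal days 4 and 28 and what a knockdown of Jun, an AP-1 transcription factor, does to the P28 heart.

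These factors work as a network. NKX2-5 (a homeodomain protein), GATA4 and GATA6 (zinc-finger proteins), TBX5 and TBX20 (T-box proteins) and the MADS-box proteins MEF2A and MEF2C bind DNA together at enhancers of sarcomere, ion-channel and natriuretic peptide genes, and several of them are mutated in congenital heart disease. IRX4 and NR2F2 (COUP-TFII) are known for ventricular and atrial identity respectively, and MEIS1 for the withdrawal of postnatal CMs from the cell cycle. Most of the set is also used outside CMs, in endocardial, vascular or fibroblast lineages.

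All animals carried the strain label Myh6/Esr1-Tomato, a mouse in which a Cre driven by the Myh6 promoter and activated by tamoxifen switches on a tdTomato reporter in CMs; per the study's methods the dams received tamoxifen just after birth. Wild-type hearts were collected at P4 (2 chips, 2 animals present on both), P7 (2 chips, 2 animals present on both), P14 (2 chips, 1 animal each) and P28 (6 chips, 5 animals, called pair 1 mouse 1 and mouse 2, pair 2, and pair 3 mouse 1 and mouse 2). The chips of pair 2 carry 1 sample name with no mouse number, which was taken here as 1 animal, so each P28 n rests on that reading. The knockdown hearts were injected at P1 with lentivirus carrying a hairpin against Jun (shJun, 2 animals) or a non-targeting hairpin (shNT, 2 animals) and collected at P28 on 6 chips; chips 1, 2 and 5 held wells of the animals numbered 1, and chips 3, 4 and 6 those of the animals numbered 2. The knockdown wells gave almost no tdTomato transcript (at most 0.207 UMIs per 1000000 UMIs of a CM-like sum, against 91.0 to 569 in the wild type). By the labels the P4 and P7 hearts were cut into ventricular regions and digested with a kit, although many P4 wells were atrial by their light chains (below). The P14 and P28 hearts were, by the labels, perfused by the Langendorff method. By their names the P14 wells and P28 chips also came as CM and non-CM fractions, whereas the P4 and P7 wells carry mouse names only. No stage shares a chip with another, so stage, digestion, fraction and chip cannot be told apart.

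A unique molecular identifier (UMI) count per gene and well was the measurement. Chips held between 11161784 and 106226097 UMIs in the wild-type series and between 88597336 and 133264535 in the knockdown series, and 12794 of 15993 wild-type and 7057 of 7482 knockdown wells with a cell passed the filters. Of 5008 distinct well barcodes, 4671 occurred in more than 1 library, because the barcodes mark well positions. Wells were clustered and named CM-like, Fibroblast-like and so on from fixed marker genes. The CM-like class held 3456 wells in the knockdown series and 2009 of the P28, 474 of the P14, 39 of the P7 and 314 of the P4 wells, and the 8 CM markers summed to between 32049 and 104255 UMIs per 1000000 UMIs of the wild-type CM-like sums. Levels below are UMIs per 1000000 UMIs (CPM) of a sum, a sum being all wells of 1 class in 1 animal. Values of 1 gene are compared between samples, never between genes. Some measures of the libraries moved with stage: 5 globin and other erythroid markers took 209 to 484 CPM of the CM-like sums at P4 but 4764 to 58280 CPM at P28, and Xist was at 236 and 117 CPM in the P4 and at 0 and 6.47 CPM in the P7 animals. Xist also split within stages, at 56.6 and 1.02 CPM in the P14 animals and from 0.612 to 98.3 CPM in the P28 animals. The part of these measures in the stage differences was not tested. The median CM-like well held 27620 to 41172 UMIs in the P4 and P7 animals but 4404 to 34032 in the P14 and P28 animals.

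In CM-like wells, 8 of the 10 factors had a lower fitted level at P28 than at P4 (7 to 10 under other settings, in which Nkx2-5, Irx4, Nr2f2 or Meis1 changed sides), with a median log2 change over the 10 of -0.55 against 0.02 over all 13557 genes tested. Tbx5 fell, and it was the only one of the 10 past an adjusted p of 0.05 (quasi-likelihood F test of edgeR, adjusted by Benjamini-Hochberg over all genes), where 4.28% of all genes were called. Nkx2-5, Irx4 and Meis1, by contrast, had P28 means within 1 SD of their P4 means.

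**Figure D1:**
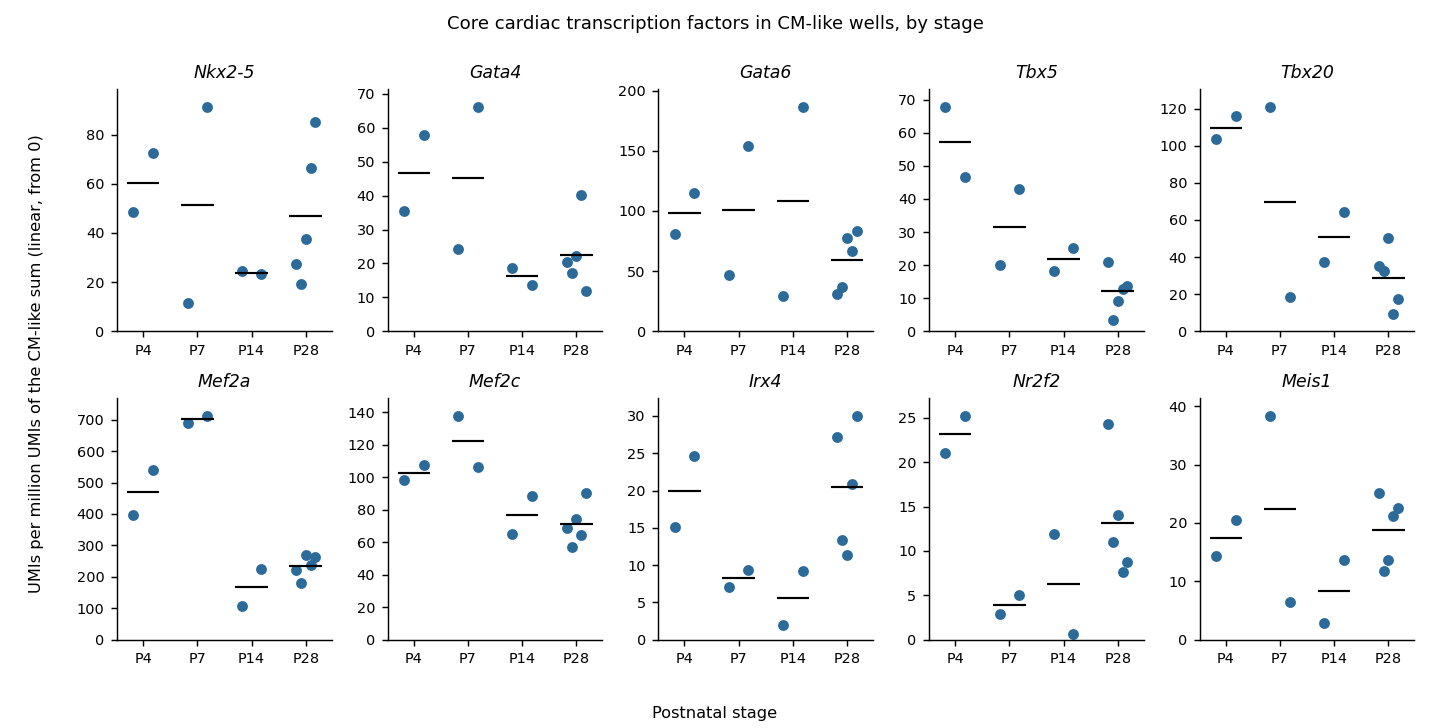
Level of each factor in CM-like wells (y axis, CPM of the sum, linear from 0) by postnatal stage (x axis); each point is 1 animal and each bar the mean of the animals. Tbx5 is at 67.8 and 46.7 in the P4 animals and at 3.33 to 20.8 in the P28 animals, whereas the P4 and P28 points of Nkx2-5, Irx4 and Meis1 overlap.

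Tbx5 (chr5:119832668-119885219, plus strand, mm10), a T-box gene needed for septation, the conduction system and the atria, stood at 67.8 and 46.7 CPM in the CM-like sums of the P4 animals and at 19.9 and 43.1 in those of the P7 animals. The P14 animals gave 18.2 and 25.2, and the 5 P28 animals gave 20.8, 3.33, 9.27, 12.9 and 13.8. The P4 and P28 animals did not overlap. The fall from P4 to P28 was 2.05 on the log2 scale (log2 change -2.05 ± 0.56 SE, adjusted p = 0.0438). It was measured over CM-like wells that were atrial, by their light chains, in 44% and 29.1% at P4 and in 0% at P28, and in ventricular wells alone the change was -0.16 ± 0.72 (adjusted p = 0.934). Tbx20 (chr9:24718138-24774303, minus strand), a T-box gene required for chamber growth, was at 104 and 116 CPM in the P4 animals and at 121 and 18.7 in the P7 animals. It was at 37.3 and 64.1 in the P14 animals, and the P28 animals gave 35.1, 32.5, 50.2, 9.19 and 17.5. Its P4 and P28 animals did not overlap either, but the change of -1.66 ± 0.58 did not pass the threshold (adjusted p = 0.113). The Tbx5 call was lost when either P4 animal was left out (-1.82 without P4 mouse 1, adjusted p = 0.346; -2.23 without P4 mouse 2, adjusted p = 0.201). It was also lost without any 1 of the 5 P28 animals (adjusted p 0.0512, 0.0691, 0.0969, 0.0681 and 0.0791 in the order above) or without P14 mouse 1 (0.0524), with log2 changes between -2.30 and -1.81.

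Over all CM-like wells, atrial ones included, the animals of P4 and P28 did not overlap for 4 of the 10 factors, Tbx5, Tbx20, Mef2a and Mef2c, all lower at P28. This happened in either direction for 32.3% of all genes tested.

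Nkx2-5 (chr17:26838664-26845009, minus strand), the homeobox gene of early heart progenitors and of the conduction system, varied as much within stages as between them. Its CM-like levels were 48.4 and 72.7 CPM in the P4 animals, 11.4 and 91.3 in the P7 and 24.5 and 23.2 in the P14 animals. The P28 animals stood at 27.4, 19.2, 37.4, 66.5 and 85.2. The P28 animals span both P4 values, and the change of -0.17 ± 0.64 was smaller than its error (adjusted p = 0.920). Gata4 (chr14:63198922-63271692, minus strand), which acts with NKX2-5 at many cardiac promoters, was at 35.5 and 57.8 CPM at P4 and at 20.4, 17.2, 22.2, 40.1 and 11.9 at P28, with 24.2 and 66.1 at P7 and 18.7 and 13.6 at P14. The lowest of them, pair 3 mouse 2, rests on 19 Gata4 UMIs in 252 wells, where 90 negative control wells held 6. Only pair 3 mouse 1 reached the P4 range, and the change was -0.85 ± 0.55 (adjusted p = 0.433). Gata6, the close paralog of Gata4, was at 80.9 and 115 CPM at P4 and at 30.6, 36.9, 77.7, 67.1 and 83.3 at P28, with 46.9 and 154 between them in the P7 and 29.7 and 186 in the P14 animals. Its P14 animals stood on opposite sides of every P28 animal, and P28 against P4 gave -0.50 ± 0.58 (adjusted p = 0.697).

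Mef2a (chr7:67231163-67372858, minus strand) and Mef2c (chr13:83504034-83667080, plus strand) encode the MADS-box factors that drive contractile and metabolic genes of muscle. Mef2a was at 397 and 540 CPM in the CM-like sums of the P4 and at 688 and 713 in those of the P7 animals. It was at 107 and 226 in the P14 animals and at 221, 181, 271, 239 and 263 in the P28 animals. Both P4 and both P7 animals stood above every P14 and P28 animal. The changes of Mef2a were -1.23 ± 0.46 from P7 to P14 (adjusted p = 0.124) and -0.78 ± 0.36 from P4 to P28 (adjusted p = 0.247). Mef2c was at 98.1 and 108 CPM in the P4 and 138 and 106 in the P7 animals, then at 65.0 and 88.6 in the P14 animals and 68.8, 57.1, 74.6, 64.6 and 90.2 in the P28 animals. Its animals also separated by stage in the same way, with a smaller change of -0.32 ± 0.36 (adjusted p = 0.684). In the ventricular wells alone the P4 animals gave 103 and 72.7 CPM of Mef2c, which overlapped the P28 values.

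Promoters of the factors were read because JUN, the target of the knockdown, binds the AP-1 element, and because these factors are known to act on each other's genes. RefSeq promoters of GRCm38.p6, 250 bases before to 50 bases after each start, were at hand for 7 of the 10 factors, which have 9 promoters. Each was searched on both strands, overlaps allowed, for 5 elements. The AP-1 element was searched as TGANTCA, where N allows any base, which occurs in 7.81% of all 32851 promoters. For the GATA factors the letters were AGATAA, found in 11.2% of them. The element of NKX2-5 was taken as TNAAGTG, found in 11.5%. The T-box factors were given the letters AGGTGT, which 13.7% of promoters hold. The MEF2 element, a run of 10 letters that stands in capitals in the Mef2a promoter below, occurs in 0.110%. In Mef2a it begins at base -2, and in Mef2c the AP-1 letters, with A at the N, begin at base -137 of the third listed start. The promoters of both are printed 5′ to 3′ on the strand of the gene, with the matching letters in capitals, from chr7:67372809-67373108 (minus strand) and chr13:83573357-83573656 (plus strand).
Mef2a: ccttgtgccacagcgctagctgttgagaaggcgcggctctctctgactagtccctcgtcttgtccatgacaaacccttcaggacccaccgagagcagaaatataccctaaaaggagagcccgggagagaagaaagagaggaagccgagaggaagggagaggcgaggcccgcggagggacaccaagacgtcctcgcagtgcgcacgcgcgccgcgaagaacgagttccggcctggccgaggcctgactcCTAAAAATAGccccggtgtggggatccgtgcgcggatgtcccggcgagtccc
Mef2c: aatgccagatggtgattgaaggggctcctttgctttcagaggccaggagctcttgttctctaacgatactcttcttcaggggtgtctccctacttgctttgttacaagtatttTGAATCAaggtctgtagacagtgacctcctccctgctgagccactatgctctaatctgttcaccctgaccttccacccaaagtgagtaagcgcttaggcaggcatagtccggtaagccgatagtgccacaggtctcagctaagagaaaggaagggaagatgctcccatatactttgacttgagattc
The other matches were the T-box letters at the second listed start of Mef2c and the NKX2-5 letters, with A at the N, at Meis1. A match says that the letters are present in this window, not that a factor binds there.

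Irx4 (chr13:73260479-73269608, plus strand), an Iroquois homeobox gene known from ventricular muscle, was at 15.2 and 24.6 CPM in the P4 animals and at 27.2, 13.3, 11.3, 20.8 and 30.1 in the P28 animals. The P7 animals gave 7.11 and 9.35 and the P14 animals 2.02 and 9.20. The P4 and P28 animals overlapped, and the P7 and P14 animals lay below all of them (P28 against P4, 0.21 ± 0.65, adjusted p = 0.904). Nr2f2 (chr7:70351944-70366735, minus strand), the nuclear receptor of atrial CMs and of veins, was at 21.0 and 25.3 CPM in the P4 animals, 2.84 and 5.03 in the P7 and 11.9 and 0.681 in the P14 animals. The P28 animals gave 24.3, 11.01, 14.0, 7.66 and 8.77. Of the P28 animals only pair 1 mouse 1 reached the P4 range, and the change was -0.61 ± 0.78 (adjusted p = 0.730). Meis1 (chr11:18879817-19018985, minus strand), a TALE homeobox gene, was at 14.3 and 20.4 CPM in the P4 and 38.4 and 6.47 in the P7 animals. It was at 2.92 and 13.6 in the P14 animals and at 25.1, 11.8, 13.6, 21.1 and 22.5 in the P28 animals. Here too the P4 and P28 animals overlapped (0.30 ± 0.69, adjusted p = 0.868).

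Between neighbouring stages no factor passed the threshold. From P4 to P7, where 0.0295% of all genes were called, the lowest change was that of Nr2f2 (-2.53 ± 1.098, adjusted p = 0.287). With ventricular wells alone Nr2f2 gave -1.32, and Irx4 (-1.78) and Tbx20 (-1.73) lay below it. From P7 to P14, where 3.28% of all genes were called, Mef2a had the lowest p of the 10. From P14 to P28 edgeR called 0% of the genes tested, 1317 genes had an unadjusted p under 0.05, and DESeq2 called 125. Among the 10 factors the lowest changes in that step were those of Tbx5 (-1.48 ± 0.57), Gata6 (-1.38 ± 0.57) and Tbx20 (-1.35 ± 0.59), all 3 with an unadjusted p under 0.05 and an adjusted p of at least 0.450. Without P14 mouse 2 the change of Gata6 was 0.29. The P7 sums are small, with 11 wells and 703085 UMIs in mouse 1 and 28 wells and 1391039 UMIs in mouse 2. A single well gave 90% of the Tbx5 UMIs of P7 mouse 2 and 74.1% of the Tbx20 UMIs of P7 mouse 1.

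The chambers sampled differed between stages. Counting a CM-like well as atrial where it held more UMIs of Myl7, the atrial light chain, than of Myl2, the ventricular one, atrial wells made up 44% and 29.1% of the CM-like wells of the P4 animals, 9.09% and 0% of those of the P7 animals and 0% of those at P14 and P28. At P4 the same 2 animals therefore gave both kinds of well, 55 and 55 atrial and 70 and 133 ventricular, and the factors could be compared between chambers within an animal.

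Between the chambers at P4, Tbx5, Nr2f2, Tbx20 and Nkx2-5 were higher in the atrial wells of both animals than in any ventricular sum, and Irx4 was lower. The values of Gata4, Gata6, Mef2a, Mef2c and Meis1 overlapped across animals, but within each animal Gata4, Gata6 and Meis1 were lower in the atrial than in the ventricular wells. None of the 10 differences passed the threshold in edgeR's test with the animal as a block, which has 1 residual degree of freedom and called 0.239% of the 10891 genes tested. Values that did not overlap, in either direction, were found for 39.6% of the genes tested, against 5 of the 10 factors.

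Tbx5 was at 119 and 150 CPM in the atrial and at 24.7 and 5.71 in the ventricular sums of P4 mouse 1 and mouse 2. The difference was 3.46 ± 0.73 on the log2 scale (unadjusted p = 0.00319, adjusted p = 0.273). DESeq2 (3.48, adjusted p = 4.97e-06), edgeR without the filter on low counts (3.40, adjusted p = 0.00018) and wells thinned to 5000 UMIs (2.81, adjusted p = 0.0347) called it. Tbx5 UMIs were seen in 67.3% of the atrial wells (95% interval 57.7 to 75.9) and in 12.3% of the ventricular wells (8.13 to 17.6). The wells' depths were close, with medians of 30223 and 25577 UMIs in atrial and 29908.5 and 28148 in ventricular wells of the 2 animals.

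Nr2f2 was at 27.0 and 84.9 CPM in atrial and 15.9 and 1.65 in ventricular sums (3.11 ± 1.46, adjusted p = 0.664), and Irx4 at 5.69 and 5.68 in atrial and 23.2 and 32.1 in ventricular sums (-2.26 ± 0.84, adjusted p = 0.564). The 2 genes thus lay on opposite sides in both animals. Tbx20 was at 125 and 225 CPM in atrial and 85.2 and 72.5 in ventricular sums (1.096 ± 0.39, adjusted p = 0.546). Nkx2-5 was at 75.8 and 85.6 against 25.3 and 67.6 (0.95 ± 0.50, adjusted p = 0.706). Mef2a was close to equal, at 400 and 530 CPM in atrial and 394 and 545 in ventricular sums (-0.01 ± 0.19). Gata6 gave 52.3 and 108 against 105 and 118, Gata4 28.1 and 55.7 against 41.8 and 58.7, Mef2c 92.5 and 196 against 103 and 72.7, and Meis1 9.25 and 19.3 against 18.7 and 20.9.

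**Figure D2:**
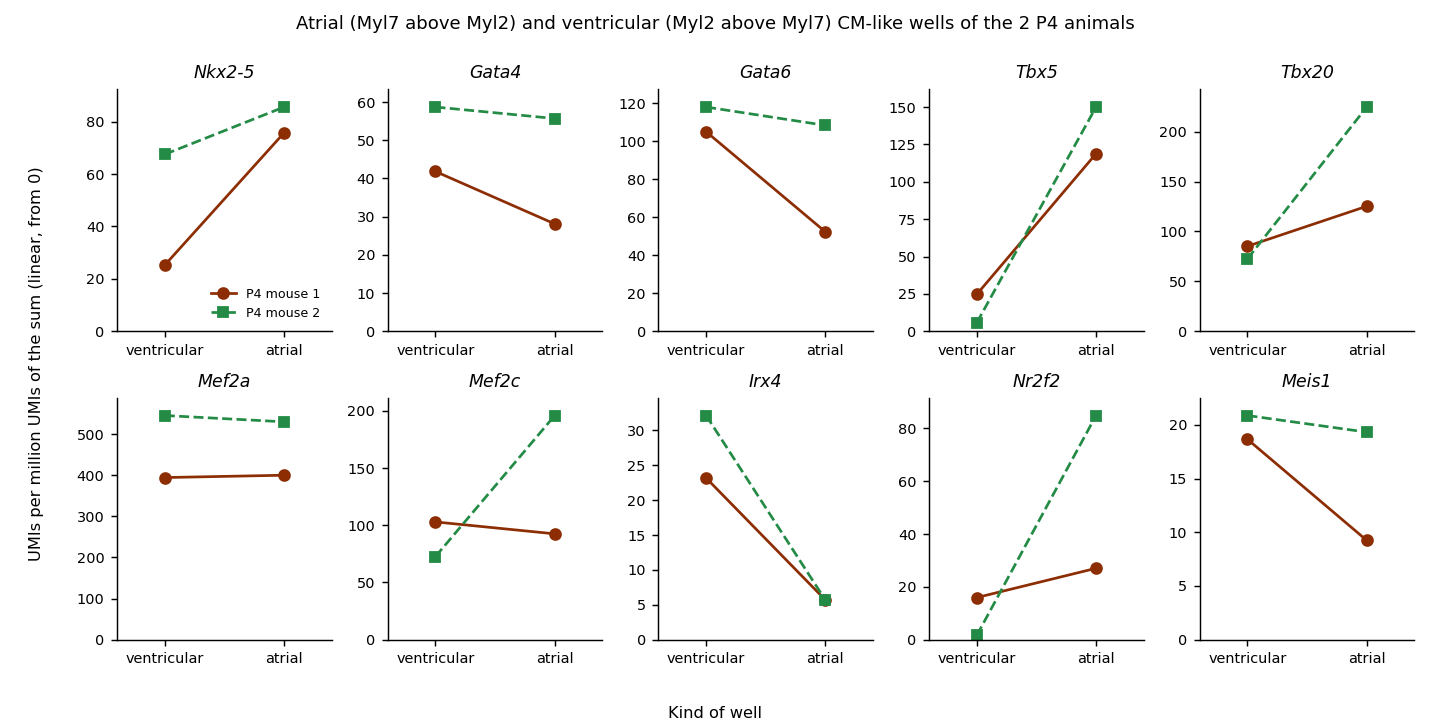
Level of each factor (y axis, CPM of the sum, linear from 0) in the ventricular and the atrial CM-like wells of the P4 hearts (x axis); each marker is 1 animal, and a line joins the 2 sums of an animal. Tbx5 lies at 119 and 150 in atrial and 24.7 and 5.71 in ventricular wells, and the 2 lines of Irx4 fall to 5.69 and 5.68 in atrial wells.

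Other genes with known chamber patterns were checked in the same sums. Of 7 listed atrial genes 6 were called higher in atrial wells, among them Nppa, the natriuretic peptide gene (5.34 ± 0.16, adjusted p = 0.000165), and their sum was 27667 and 24343 CPM in atrial and 518 and 393 CPM in ventricular wells. Among 25 listed partners of the factors, 21 were tested. Ankrd1, a cofactor of the muscle programme, was called higher (1.53 ± 0.14, adjusted p = 0.0181), and no partner was called lower. Of 20 listed targets of the factors, 18 were tested, Nppa was higher, and Myl3 (-2.31 ± 0.10) and Pln (-2.44 ± 0.14) were lower. None of the 9 paralogs tested, of 20 listed, was called.

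With the ventricular wells alone, an alternative chosen after the data were seen, the Tbx5 difference between P4 and P28 was no longer seen. The P4 animals then stood at 24.7 and 5.71 CPM, the P7 animals at 15.4 and 43.1, and the P28 animals at 3.33 to 20.8. The P4 and P28 animals overlapped, and the change was -0.16 ± 0.72 (adjusted p = 0.934) where 4.16% of the 13172 genes tested were called. Tbx20 kept a lower level at P28, with 85.2 and 72.5 CPM in the ventricular wells of the P4 animals against 9.19 to 50.2 at P28 (-1.23 ± 0.53, adjusted p = 0.206). Mef2a (-0.83 ± 0.36, adjusted p = 0.208) and Gata4 (-0.997 ± 0.55, adjusted p = 0.331) moved little with this restriction. Mef2c, at 103 and 72.7 CPM in the ventricular wells of the P4 animals, overlapped the 57.1 to 90.2 CPM of the P28 animals (-0.13 ± 0.37, adjusted p = 0.893). None of the 10 was called.

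**Figure D3:**
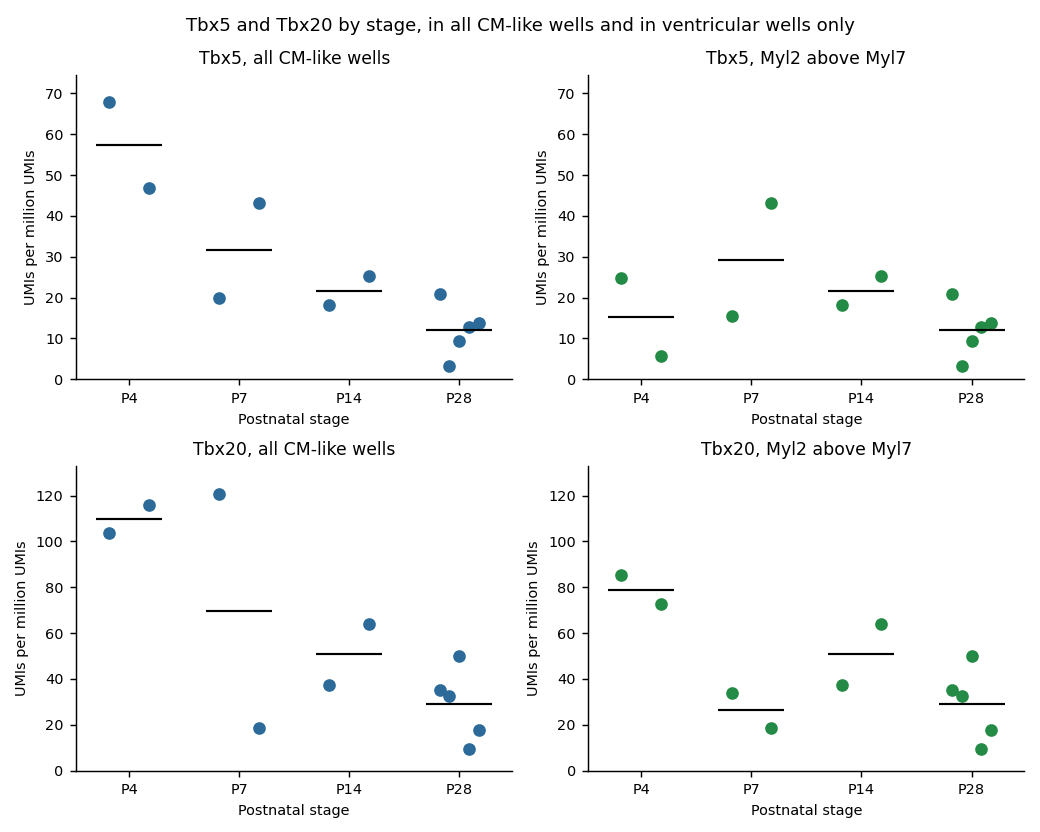
Tbx5 (top) and Tbx20 (bottom) in all CM-like wells (left) and in wells with more Myl2 than Myl7 UMIs (right), by postnatal stage (x axis), in CPM (y axis, linear from 0); points are animals and bars means. At P4 Tbx5 goes from 67.8 and 46.7 in all wells to 24.7 and 5.71 in ventricular wells, while Tbx20 goes from 104 and 116 to 85.2 and 72.5.

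The share of CM-like wells with a UMI was lowest at P14 and P28, where the wells were shallowest. Tbx5 was seen in 31.8% of the CM-like wells at P4 (95% exact interval 26.7 to 37.3, median 28797 UMIs), 17.9% at P7 (7.54 to 33.5, 39146 UMIs), 3.59% at P14 (2.10 to 5.68, 9601.5 UMIs) and 5.77% at P28 (4.79 to 6.89, 8120 UMIs). Fibroblast-like wells, in which the gene should be low, had it in 3.58% at P4 (2.39 to 5.13, 14318.5 UMIs) and in 1.202% at P28 (0.551 to 2.27, 10201 UMIs). With every well thinned to 2000 UMIs, which left out 167 P28 and no other CM-like wells, the Tbx5 shares of CM-like wells were 8.60%, 7.69%, 1.48% and 2.01% from P4 to P28. The thinned Fibroblast-like shares were 0.399% at P4 and 0.432% at P28. All intervals cover counting error alone. The median CM-like well held UMIs of 4 of the 10 factors at P4 and P7 and of 1 at P14 and P28, and after thinning the means were 1.29, 1.28, 0.369 and 0.699 factors per well.

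To place the factors among the cells of the heart, their levels were set side by side in 6 classes of the wild-type hearts, as a description without a test. CM-like sums had the highest median of only 3 factors, Nkx2-5, Tbx5 and Irx4. Endocardial-like sums led for Gata4 and Gata6, Fibroblast-like for Tbx20 and Meis1, Mural-like for Mef2c and Nr2f2, and Endothelial-like for Mef2a. The medians run over 11 animals for CM-like, Fibroblast-like, Endothelial-like and Macrophage-like sums, 9 for Endocardial-like and 5, none of them P28, for Mural-like sums.

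Nkx2-5 had a median of 37.4 CPM in CM-like and 6.78 CPM in Endothelial-like sums, the next class, and was higher in the CM-like sum of 10 of 11 animals. Tbx5 had 19.9 CPM in CM-like and 1.95 CPM in Endothelial-like sums and was higher in the CM-like sum of 11 of 11 animals. Irx4 had 13.3 CPM in CM-like and 8.16 CPM in Mural-like sums (3 of 5 animals), and the next class, Endothelial-like, had 0.679 CPM.

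Tbx20 gave 136 CPM in Fibroblast-like, 57.6 CPM in Mural-like and 37.3 CPM in CM-like sums, and the Fibroblast-like sum was above the CM-like one in 10 of 11 animals. The highest Tbx20 value, 504 CPM in the Fibroblast-like sum of P14 mouse 2, came from 31 wells, 1 of which gave 86.0% of the UMIs. Meis1 was at 31.3 CPM in Fibroblast-like and 14.3 CPM in CM-like sums (higher in 9 of 11 animals).

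Gata6 had medians of 109 CPM in Endocardial-like and 77.7 CPM in CM-like sums (7 of 9 animals). Gata4 did not separate its leading classes, with 40.4 CPM in Endocardial-like and 35.6 CPM in Fibroblast-like sums and the former higher in 5 of 9 animals. Mef2c was at 428 CPM in Mural-like and 211 CPM in Macrophage-like sums (3 of 5 animals), so these neighbours overlapped as well. Nr2f2 was at 117 CPM in Mural-like and 83.0 CPM in Endocardial-like sums (2 of 5 animals) and at 30.9 CPM in Endothelial-like sums. Mef2a was at 326 CPM in Endothelial-like, 291 CPM in Mural-like and 263 CPM in CM-like sums, and the Endothelial-like sum exceeded the CM-like one in only 5 of 11 animals.

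**Figure D4:**
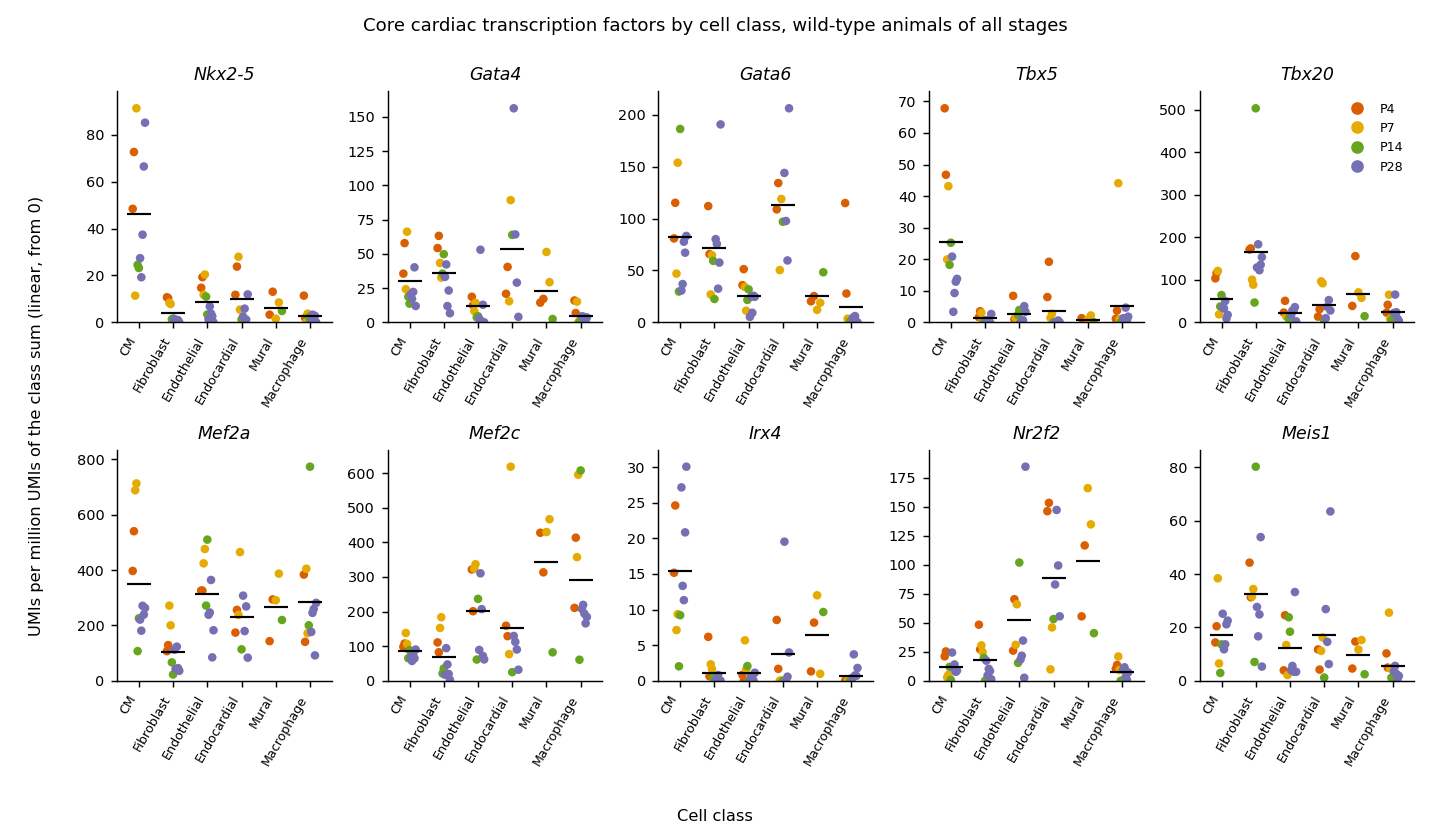
Level of each factor (y axis, CPM of the class sum, linear from 0) in 6 cell classes (x axis) of the wild-type animals; points are animals, coloured by stage, and bars are means. Nkx2-5, Tbx5 and Irx4 have their highest medians in CM-like sums, Tbx20 lies above its CM-like level in the Fibroblast-like sums of 10 of 11 animals, and Mef2c and Nr2f2 have their highest medians in Mural-like sums.

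In the Fibroblast-like wells 8 of the 10 factors could be tested between P4 and P28, as Tbx5 and Irx4 were too low, and none passed the threshold where 2.8% of all genes were called. Nkx2-5 came closest: 10.7 and 10.3 CPM at P4 against 1.38, 0, 0.575, 0.929 and 0 at P28 (-3.92 ± 1.02, adjusted p = 0.0511). The groups did not overlap, but the P28 values rest on 0 to 5 UMIs per animal. The 8 CM markers moved with it in the same Fibroblast-like sums, at 10976 and 9311 CPM at P4 and 629 to 2702 CPM at P28, and their part in the difference was not tested. Nr2f2 gave 48.3 and 27.1 CPM at P4 and 1.32 to 17.3 CPM at P28 (-2.01 ± 0.98, adjusted p = 0.440). Tbx20 overlapped between the stages in this class, with 171 and 174 CPM at P4 and 123 to 184 CPM at P28 (-0.06 ± 0.55, adjusted p = 0.986, and 0.01 with DESeq2).

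In the Endothelial-like wells 9 factors were tested and none was called, where 1.97% of all genes were. Nkx2-5 again had the lowest change, from 14.7 and 19.3 CPM at P4 to between 0 and 6.78 CPM at P28 (-2.36 ± 1.01, adjusted p = 0.283), in sums whose CM markers were at 14960 and 11785 CPM at P4 and 906 to 2548 CPM at P28. Whether the P4 to P28 change of a factor differs between CM-like and Fibroblast-like wells was tested directly, and none of the 10 passed where 0.222% of all genes were called. That fit, with 14 residual degrees of freedom, took the CM-like and Fibroblast-like sums of an animal as independent. Its errors therefore do not account for the pairing of classes within animals. The largest difference was that of Nkx2-5 (3.78 ± 1.12, adjusted p = 0.176), and Irx4 followed (3.21 ± 1.39, adjusted p = 0.465). Tbx20 had the lowest (-1.53 ± 0.90, adjusted p = 0.660).

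The wider network of the factors was also read in CM-like wells between P4 and P28, where 4.28% of all genes were called. Of 20 listed paralogs of the factors, 14 were tested, 1 was called higher and none lower. That gene was Gata2, the blood and endothelial GATA factor, at 0 and 0.430 CPM at P4 and 5.02 to 18.4 CPM at P28 (adjusted p = 0.0123). The 8 endothelial markers also stood higher in these CM-like sums, at 894 to 3698 CPM at P28 against 453 and 242 CPM at P4, and their part in the Gata2 difference was not tested.

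Among the 25 partners 23 were tested. Klf15, a Krüppel-like factor of cardiac metabolism, rose from between 1.63 and 2.79 CPM to between 11.3 and 21.8 CPM (2.99 ± 0.79, adjusted p = 0.0373). Of 20 targets of the factors, 18 were tested, none rose and 2 fell: Gja5, the connexin of atria and conduction fibres (-4.26 ± 0.90, adjusted p = 0.0115), and Slc8a1, the sodium-calcium exchanger (-2.20 ± 0.56, adjusted p = 0.0309). All 7 atrial genes were tested and 6 fell, led by Mybphl (182 CPM on average at P4 and 0.256 CPM at most at P28, adjusted p = 4.68e-07), and of 6 ventricular genes 1 fell, Lbh (-1.51 ± 0.33, adjusted p = 0.014). Leaving out either P4 animal ended the calls of Gata2, Klf15, Gja5, Slc8a1 and Lbh, with adjusted p up to 0.162, 0.341, 0.0994, 0.442 and 0.256, but not that of Mybphl. The calls of Klf15 and Slc8a1 were each also lost without any 1 of 4 of the 5 P28 animals.

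Restricting the wells kept some of these calls and ended others. With ventricular wells alone Slc8a1 (-2.32 ± 0.55, adjusted p = 0.022), Klf15 (2.93 ± 0.80, adjusted p = 0.0447) and Gata2 (adjusted p = 0.0168) were still called. So was Lbh (-2.03 ± 0.33, adjusted p = 0.00298), 1 of 2 ventricular genes then called lower. Gja5 gave -2.20 ± 1.07 (adjusted p = 0.263), and none of the 5 atrial genes that could be tested was called. From P7 to P14 the lists gave Irx3, an Iroquois paralog of Irx4, as lower (-3.96 ± 0.77, adjusted p = 0.0151) and Klf15 as higher (adjusted p = 0.0151). In that step 3 of the 7 atrial genes and 1 of the 6 ventricular genes were also called lower. Irx3 was no longer called without either P14 animal or without P7 mouse 1 (adjusted p up to 0.0733), nor Klf15 without P14 mouse 2 or P7 mouse 1 (up to 0.0565). Irx3 was between 34.5 and 109.5 CPM at P7, between 1.57 and 3.41 CPM at P14 and between 14.4 and 26.9 CPM at P28.

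To ask whether the factors depend on Jun, shJun and shNT hearts were compared at P28. Jun itself was at 53.6 and 63.5 CPM in the CM-like sums of the shNT animals and at 25.5 and 31.5 CPM in those of the shJun animals (-1.09 ± 0.24, unadjusted p = 0.00364, adjusted p = 0.99993). The 4 animals do not overlap, in the direction of their labels, but no gene passed the adjusted threshold: edgeR called 0% of 17625 genes, with 394 at an unadjusted p under 0.05. With animals that shared chips as a block it called 20 genes, with 750 at an unadjusted p under 0.05, and Jun was not among them (adjusted p = 0.208). Without the filter on low counts Jun was called (-1.11, adjusted p = 0.0344). The animals also differed in Xist, at 113 CPM in shJun mouse 1 and at 0.307 to 4.13 CPM in the other 3, and its part in the comparison was not tested.

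None of the 10 factors was called between the hairpins. In CM-like wells the log2 changes ran from -0.49 to 0.19 with standard errors of 0.18 to 0.60, and no factor had an unadjusted p under 0.05. These errors come from the fit without pairing, so they include differences between the animal numbers. With animals that shared chips as a block, the changes ran from -0.49 to 0.22 with standard errors of 0.17 to 0.34. No factor had an unadjusted p under 0.05 in that fit either. Tbx5 was the 1 factor whose animals did not overlap, at 21.8 and 27.7 CPM under shNT and 19.3 and 17.3 CPM under shJun (-0.49 ± 0.28, unadjusted p = 0.127). Values that do not overlap occurred in 24.9% of all genes tested.

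Nkx2-5 was at 62.6 and 65.0 CPM under shNT and 84.4 and 49.6 CPM under shJun, so that the shJun animals stood on either side of both shNT animals. The 4 factors with the closest values in the 4 animals followed. Mef2a was at 264 and 242 against 241 and 244 CPM, and Tbx20 at 45.04 and 48.6 against 42.9 and 46.2 CPM. Meis1 was at 34.9 and 34.5 against 30.5 and 35.9 CPM, and Gata6 at 74.6 and 75.1 against 59.0 and 81.2 CPM. Mef2c, whose promoter shown above matched the AP-1 letters with A at the N, was at 178 and 109 CPM under shNT and 203 and 138 CPM under shJun (0.19 ± 0.32). Irx4 was at 26.2 and 13.1 against 22.1 and 18.8 CPM.

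Several factors differed more between the animal numbers than between the hairpins. Animals with the same number shared their chips. Gata4 was at 93.2 CPM in shNT mouse 1 and 90.5 in shJun mouse 1 but at 42.1 and 56.1 in shNT and shJun mouse 2. Mef2c showed the same split, and Nr2f2 the reverse one, at 5.24 and 7.85 CPM in the animals numbered 1 and 16.2 and 15.8 CPM in those numbered 2. The chips of 1 number differed as well. Mef2c was at 121 and 116 CPM on chip 1 and at 259 and 265 CPM on chip 2 in shJun and shNT mouse 1, and at 94.1 to 138 CPM on chips 3 and 4 of the animals numbered 2, so that chip 1 lay within the range of the other number. The 67 wells of shNT mouse 1 on chip 5 gave 181 CPM. Gata4 was at 54.6 and 77.5 CPM on chip 1 and at 115 and 122 CPM on chip 2, against 38.6 to 65.3 CPM on chips 3 and 4.

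**Figure D5:**
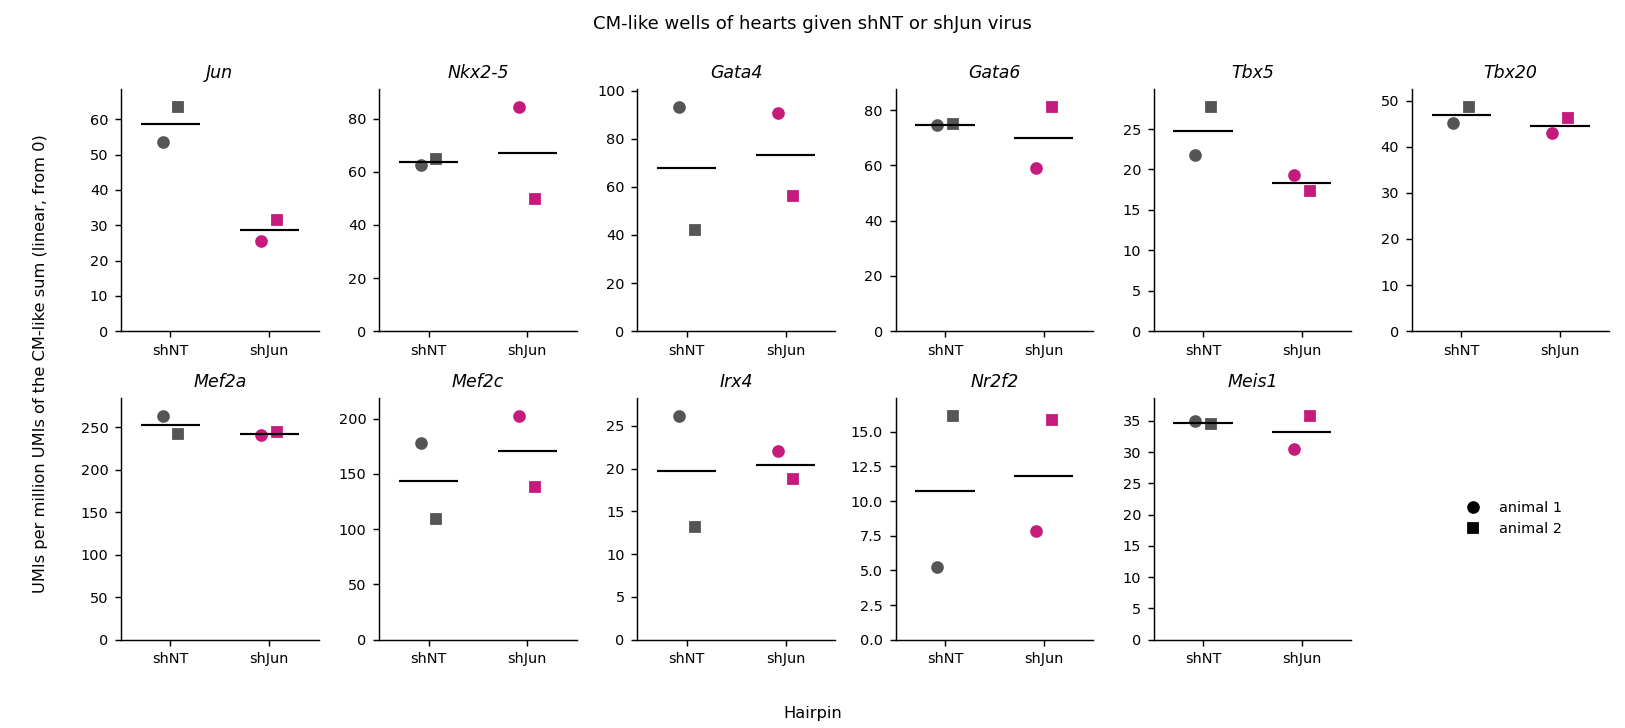
Jun and the 10 factors (y axis, CPM of the CM-like sum, linear from 0) in shNT and shJun hearts (x axis); circles are animals numbered 1, squares animals numbered 2, and bars means. Jun is at 53.6 and 63.5 under shNT and 25.5 and 31.5 under shJun, whereas the circles and squares of Gata4, Mef2c and Nr2f2 separate by number under both hairpins.

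Outside CM-like wells the hairpins also gave no called factor, but there Jun itself did not follow the labels. In Fibroblast-like sums Jun was at 69.7 and 124 CPM under shNT and at 165 and 190 CPM under shJun (0.83 ± 0.50, adjusted p = 0.979). Epicardial markers in these Fibroblast-like sums were at 1373 and 37.7 CPM under shNT and 255 and 197 CPM under shJun. Their part in the levels of Jun and the factors in this class was not tested. In Endothelial-like sums Jun was at 118 and 101 CPM under shNT and 96.0 and 130 CPM under shJun (-0.18 ± 0.57, adjusted p = 0.99973). In Fibroblast-like wells the changes ran from -1.01 to 1.59 and in Endothelial-like wells from -3.17 to 1.06, with 0% of all genes called in each class and 643 and 626 genes at an unadjusted p under 0.05. The -3.17 was that of Nkx2-5 (SE 1.87, adjusted p = 0.98), at 18.4 and 1.34 CPM under shNT and 2.16 and 0.221 CPM under shJun. In the same Endothelial-like sums the CM markers were at 18658 and 4738 CPM under shNT and 3721 and 6742 CPM under shJun. Their part in the Nkx2-5 levels was not tested. Mef2a had the lowest unadjusted p of the 10 there, 0.0897, at 227 and 175 CPM under shNT and 370 and 518 CPM under shJun (0.92 ± 0.47). None of the tested paralogs, partners and targets was called in CM-like, Fibroblast-like or Endothelial-like wells. Endothelial-like wells reached 10 per animal and chip only on chips 5 and 6. Nkx2-5 in Fibroblast-like wells was at 0 to 2.04 CPM on chips 5 and 6 and at 12.0 to 47.8 CPM on chips 1 to 4. The part of the chips in these levels was not tested.

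As a last description, genes whose level ran most like that of each factor were read over 77 wild-type sums of class, stage and animal, by Pearson's r of log2(CPM + 1) among 11941 genes. The sums share libraries and depth, so r is given without a test. Nkx2-5 ran with 1110002E22Rik and Cap2 (r = 0.79 each), Tbx5 with Tmod1 (0.74), which caps actin filaments, and Bves (0.70), and Irx4 with Mypn (0.72), a Z-disc protein gene. Gata4 ran with Wls (0.71), Gata6 with Bmpr1a (0.78), a BMP receptor, and Meis1 with Nfia (0.76). Tbx20 ran with Itih5 (0.76) and Ogn (0.72), a matrix proteoglycan gene, and Nr2f2 with Gja4 (0.70) and Esam (0.66), both vascular genes. Mef2a had Set (0.78) and Mef2c had Wbp4 (0.72) as its nearest gene. Between the factors themselves the highest values were those of Nkx2-5 with Irx4 (0.68), Gata4 with Gata6 (0.68) and Gata6 with Meis1 (0.67).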

How the data were processed

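Wells of 18 ICELL8 chips (single-cell RNA-seq in nanowells, with UMIs) were used, 12 wild-type and 6 knockdown. The values are UMI counts per gene and well as deposited by the authors, not normalized; per the labels reads were aligned to mm10 with STAR 2.5.2b and counted with featureCounts of Subread 1.4.6-p1. The deposited well reports give each well's animal or hairpin, and matrix and report totals differed in 0 wells.

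Wells needed at least 500 genes and log10 UMIs within 2 SD of their group's mean, a form of the filter set with the passing numbers of earlier work known. Wells were scaled to 10000 UMIs and clustered per stage (10 principal components, 30 neighbours, Leiden at 0.8, or 1 for knockdown; scanpy 1.11.5) without the 10 factors, their paralogs and partners, Jun, Myl2 and Myl7. A cluster was named from fixed markers (at least 3 seen in 20% of wells, mean log2 fold at least 0.2). Added after clusters were seen: a fold of 2 for erythroid wells, and clusters led by genes against their name left unnamed, among them CM-led clusters of 99 and 94 P28 wells and 198 wells of shJun mouse 2. P28 clusters of 571 and 520 wells kept the CM name by score, with all 8 CM markers seen. The first, at a median of 4620 UMIs, was led by Sp1 and Gm11410. The second was led by Cav1 and by Pcdh17, which also led the P4 Endothelial-like cluster. Their part in the P28 CM-like levels was not tested. No doublet caller was run, since wells were imaged before selection; wells with markers of a second class were left out as an alternative.

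UMIs were summed per animal and class (at least 10 wells) and tested with edgeR 4.0.16 (R 4.3.3; glmQLFit, TMM, filterByExpr), Benjamini-Hochberg over all genes, threshold 0.05; all stages shared a fit, and the atrial comparison had the animal as a block. SE is the log2 change over the square root of F. The fit was checked on simulated counts. In CM-like wells it recovered 2.08% of log2 changes of 1 and 25% of those of 2 between P4 and P28. Between the hairpins it recovered 2.08% and 27.1% in CM-like wells and 0% of both in Endothelial-like wells. A factor that was not called may thus still have changed by such amounts. Alternatives included DESeq2 1.42.0. Animals are named in the well reports, and p-values measure the spread between these animals. In the class comparison, however, the CM-like and Fibroblast-like sums of an animal were taken as independent. Same-numbered knockdown animals shared chips, which pairs them: the 2 differences between numbers correlated at 0.30 over genes in CM-like, 0.067 in Fibroblast-like and 0.013 in Endothelial-like sums. Intervals of shares are exact Clopper-Pearson at 95%. The factors and lists were chosen with earlier results of these data known. All 10 factors are named; from each list up to 4 called genes with the smallest p are named, apart from 1 that is not reported here, and the 3 genes with the highest r were kept per factor. Gene positions come from the GENCODE annotation of GRCm38, which is mm10.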

Additional observations from a re-analysis of the deposited data

Results flagged for a closer look

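At P28, 40 groups of 5 animals (10 factors in 4 classes) were screened for 1 animal far from the others. The cutoff would mark about 1 in 20 groups of normally distributed values. Levels near 0 CPM need not follow that rate, since a group with 4 animals at 0 and 1 above is always marked. Of the 40 groups 5 were marked. In Endothelial-like sums Gata4 was at 53.0 CPM in pair 1 mouse 2, with the next animal at 12.8 CPM. Meis1 was at 33.2 CPM in pair 3 mouse 1, with the next at 5.55 CPM. Nr2f2 was at 185 CPM in pair 3 mouse 2, with the next at 34.6 CPM, and 1 well gave 82.4% of its UMIs there. In Fibroblast-like sums Tbx5 was at 2.65 CPM in pair 3 mouse 2, with the next at 0.691 CPM, and Irx4 at 0.805 CPM in the pair 2 animal, with the other 4 at 0.

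Control wells without a cell also held UMIs of the factors, above the 3 counts that a count of 0 allows. In 90 negative control wells, with 51790 UMIs in all, there were 6 UMIs of Gata4, 4 of Gata6, 4 of Tbx20, 7 of Mef2a and 5 of Mef2c, and none of Tbx5, Irx4 or Nr2f2. Relative to their few UMIs these counts amount to 77.2 to 135 CPM. In 91 positive control wells there were 65 UMIs of Tbx20, in 5 wells, and 5 UMIs of Mef2a. The control wells entered no comparison, and no level was corrected for them.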

How the results depend on the processing

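The 47 log2 changes given above were recomputed under alternatives, which gave 899 values: 789 had the same direction and side of the threshold, 60 no longer passed it, 18 newly passed it, 10 had no adjusted p and moved by more than the standard error, and 22 had the opposite sign. None of these 22 was called, and the cause was not tested. Cell-by-cell classes turned Nr2f2 from P4 to P7 (0.095 in place of -2.53), Mef2a from P7 to P14 (0.10 in place of -1.23) and between the chambers (0.64 in place of -0.01), Nkx2-5 from P4 to P28 (0.75 in place of -0.17) and Mef2c between the hairpins (-0.070 in place of 0.19). Ventricular wells alone turned Nkx2-5 (0.15), Irx4 (-0.31 in place of 0.21) and Nr2f2 (0.79 in place of -0.61) from P4 to P28, and thinning to 5000 UMIs turned Irx4 (-0.26) and Meis1 (-0.59 in place of 0.30) there and Jun between the hairpins in Endothelial-like wells (0.61 in place of -0.18). DESeq2 and RLE scaling turned Tbx20 in Fibroblast-like wells (0.012 and 0.011 in place of -0.06, and 0.10 with thinning) and Mef2a between the chambers (0.0017 and 0.0016). Leaving out 1 animal at a time gave -2.07 to 0.29 for Gata6 from P14 to P28, -0.46 to 0.25 for Nkx2-5 and -0.13 to 0.69 for Irx4 from P4 to P28, and -0.13 to 0.60 for Mef2c between the hairpins. Of 1382 further values, for the 74 changes of factors not given one by one, 141 had the opposite sign and none crossed the threshold. The alternatives "without P28 chips 5 and 6" and "ventricular wells only" were chosen after seeing the data.

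The number of factors called between P4 and P28 in CM-like wells, 1 in the report, was 0 with RLE scaling, with at least 1000 genes per well, without wells holding markers of a second class, without P28 chips 5 and 6, with ventricular wells alone and with sums per chip, and 2 without the count filter, with at least 20 wells per sum and in a fit of these 2 stages alone, where Tbx20 joined Tbx5. Leaving out 1 animal at a time gave 0 to 2. Over 22 alternatives other than ventricular wells, 7 called Tbx5, with log2 changes from -2.30 to -0.79 and adjusted p from 0.0125 to 0.425. With wells thinned to 5000 UMIs the called factor was Tbx20 (-2.19, adjusted p = 0.00615), and cell by cell it was Nr2f2 (-1.41, adjusted p = 0.0462). The number called was 1 in place of 0 from P7 to P14 with DESeq2 (Mef2a, -1.37, adjusted p = 0.0197), in the difference between classes with DESeq2 (Nkx2-5, 3.83, adjusted p = 0.0351), in atrial against ventricular wells with DESeq2, no count filter and thinning (Tbx5), and in Fibroblast-like wells with DESeq2 and no count filter (Nkx2-5), with thinning (Nr2f2) and, as the upper end of 0 to 1, when either P14 animal was left out. Leaving out 1 animal gave 0 to 0 in the other comparisons; with 2 animals per group, the lone animal is then assumed to vary like the others.

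The number of all genes called moved more. Over alternatives that kept at least 2 sums in each compared group, CM-like P28 against P4 gave 249 to 1450 (580 in the report). P7 against P4 gave 0 to 552, P14 against P7 13 to 1561, P28 against P14 0 to 125 and the class difference 0 to 285. The highest counts were 847 and 882 for the Fibroblast-like and Endothelial-like changes. For the chambers the highest count was 213, and leaving out an animal left no test. The hairpins gave 0 to 396, 0 to 136 and 0 to 151. RLE scaling moved the median of all genes from -0.23 to -0.04 from P4 to P7 and from 0.02 to 0.12 from P4 to P28. With the replicate block of animals that shared chips, 0 factors were called in each hairpin comparison (Tbx5 in CM-like wells -0.49, adjusted p = 0.99995). Without the animal block the atrial difference of Tbx5 was 3.19 (adjusted p = 0.235), and with sums per chip and the chip as a block 3.50 (adjusted p = 0.145). Thinning to 2000 UMIs lowered all 40 shares of CM-like wells, 39 of them beyond their interval. The depth of P7 and the 2 animals at P4, P7 and P14 limit what these tests can show.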

Other observations

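The number of factors seen per well was also read by class, at 1 depth and without a test. Thinned to 2000 UMIs, P4 wells held a mean of 1.29 of the 10 factors in the CM-like, 0.728 in the Fibroblast-like, 0.774 in the Endothelial-like, 0.788 in the Endocardial-like, 0.964 in the Mural-like and 0.724 in the Macrophage-like class. At P28 the CM-like mean was 0.699, the Endocardial-like 0.743, the Endothelial-like 0.563, the Macrophage-like 0.554 and the Fibroblast-like 0.450. Erythroid wells, which hold almost no cardiac transcripts of their own, had 0.0448 at P14 and 0.0704 at P28. Among the P4 CM-like wells the atrial ones held 1.51 and the ventricular ones 1.18 factors on average.

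In the knockdown series the CM-like means after thinning were 0.952 under shNT and 1.06 under shJun, both above the wild-type P28 value, in libraries prepared separately. Wells named erythroid were higher there too, at 0.495 under shNT and 0.371 under shJun, and their part in the difference was not tested. The 331 such wells under shNT formed a single cluster of shNT mouse 2. Its leading genes held the endocardial marker Npr3, H19 and Igfbp5 beside globin genes, so its value cannot be read as that of erythroid cells alone. Mural-like sums of the knockdown hearts gave Nr2f2, the venous and mural nuclear receptor, at 237 and 298 CPM under shNT and 190 CPM in the 1 shJun animal with enough wells, and Mef2c at 256 and 216 CPM under shNT and 223 CPM under shJun. With 1 shJun sum these values were not tested.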
